A study of Mus musculus with 6 samples.

Results

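The collagen chains are the protein subunits of the main structural fibres and sheets of the extracellular matrix, and 38 mouse genes that encode them were followed by RNA sequencing in cultured embryonic fibroblasts. The 38 genes were taken from a list of symbols, matched by Ensembl identifier, and all 38 were found among the 46983 genes of the count files. They were sorted into 10 fibrillar chains, 11 chains of basement membranes and related sheets, 5 beaded-filament chains, 8 fibril-associated chains with interrupted triple helices (FACIT) and 4 transmembrane chains. The libraries formed 2 groups of 3, labelled SphK2 null and wild type. Both groups were mouse embryonic fibroblasts of strain C57BL/6 from embryos of 14 days, at passage 16, grown with 10% fetal bovine serum, and neither received a treatment named in the labels. Sphingosine kinase 2, the product of Sphk2, makes the lipid messenger sphingosine 1-phosphate. The null allele and the number of embryos or cell lines behind the libraries were not given in the sources used here, and replicates may thus be technical, in which case p-values reflect technical spread alone.

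Each collagen molecule is a triple helix of 3 chains, made of 1, 2 or 3 different gene products. The chains are hydroxylated and assembled in the endoplasmic reticulum, and fibrillar procollagens are trimmed by proteases outside the cell and crosslinked into fibrils. Types I, III and V are the typical collagens of fibroblasts, type IV forms the network of basement membranes, and type VI forms beaded microfilaments around cells.

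Total counts ran from 16804841 to 19148434 in the null-labelled libraries and from 15598566 to 23681718 in the wild-type-labelled libraries. Levels of single genes are given as CPM, counts divided by library size, with the library sizes scaled by the trimmed mean of M-values (TMM). A count of 3 corresponded to 0.129 to 0.197 CPM. Sphk2 itself stood at 49.4, 51.6 and 49.1 CPM in the 3 null-labelled libraries, against 28.1, 27.4 and 26.3 CPM in the wild-type-labelled libraries. The named target was thus higher where it should be lost, by 0.87 ± 0.05 on the log2 scale (SE), and counts per gene do not show whether these transcripts are intact. Libraries of one group correlated at 0.998 across tested genes, and libraries of different groups at 0.874 to 0.876. All directions below are therefore those of the library labels.

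Of the 38 chains, 28 had enough reads to be tested, 21 were lower and 5 were higher in null-labelled libraries, while 2 did not pass an adjusted p of 0.05 (edgeR quasi-likelihood test, Benjamini-Hochberg adjustment over 15199 genes). The background was high, since 79.2% of all tested genes passed, 41.1% as lower and 38.1% as higher. The median log2 fold change, null-labelled over wild-type-labelled, was -1.87 over the 28 tested chains, against -0.02 over all tested genes. More than 2-fold lower were 17 chains, against 15.8% of tested genes, and more than 32-fold lower were 9 chains, against 6.15%. More than 2-fold higher were 3 chains, against 10.4% of tested genes. The values of the groups did not overlap for 26 of the 28 chains, as for 79.9% of tested genes. Of the tested chains, 5 were below the filter level in every null-labelled library (Col4a4, Col4a5, Col8a2, Col22a1 and Col25a1) and 1 in every wild-type-labelled library (Col13a1). These 6 entered the test only through the group in which they were high. Col12a1, Col15a1 and Col27a1 were below that level in some null-labelled libraries, and Col11a2 and Col17a1 in some wild-type-labelled libraries. Their lower group alone would not have passed the filter either. The counts thus describe the members and are not evidence about collagen as a class. In bulk RNA, fewer cells that express a gene and less RNA per cell cannot be told apart.

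**Figure D1:**
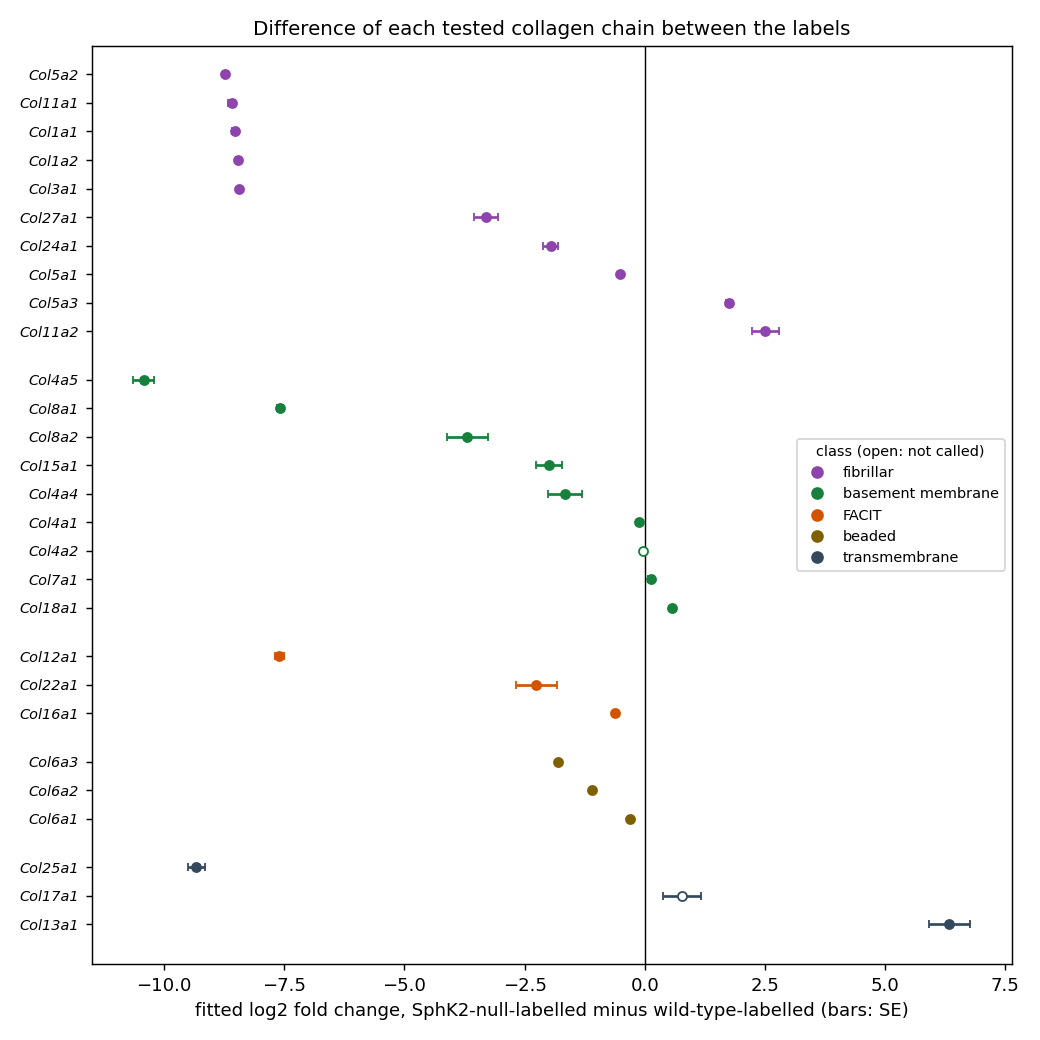
Log2 fold change of each tested collagen chain, null-labelled over wild-type-labelled libraries, with its standard error, coloured by class (edgeR, 3 libraries each; open circles did not pass). The fitted values of Col4a5, Col25a1 and Col13a1, at 1 to 3 counts in one group, are not bounds. Of the 28 chains shown, 21 lie below 0 and passed the test, 5 lie above 0 and passed it, and Col4a2 and Col17a1 did not pass.

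Summed over the 38 chains, collagen transcripts took 0.302% ± 0.001 of all counts in null-labelled libraries and 1.17% ± 0.02 in wild-type-labelled libraries (SD, n = 3 each). Levels of different genes were compared per exonic base, as TPM, in which counts per exonic base are scaled to the same sum over all genes in every library. On that scale the collagen total was 1401 ± 4 TPM in null-labelled libraries and 4383 ± 100 TPM in wild-type-labelled libraries (SD, n = 3 each). Fibrillar chains carried most of the difference, with 210.3 TPM in null-labelled and 2477 TPM in wild-type-labelled libraries on average. Basement membrane chains came to 595 and 832 TPM and beaded chains to 514 and 918 TPM, in null-labelled and wild-type-labelled libraries in this order. FACIT chains had 79.5 TPM in null-labelled and 145.5 TPM in wild-type-labelled libraries. Transmembrane chains had 2.87 TPM in null-labelled and 10.1 TPM in wild-type-labelled libraries.

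The make-up of the remaining collagen RNA therefore differed between the labels. Fibrillar chains made up 15.0% ± 0.04 of collagen TPM in null-labelled libraries, against 56.5% ± 0.05 in wild-type-labelled libraries (SD, n = 3 each). Basement membrane chains made up 42.5% ± 0.5 in null-labelled and 19.0% ± 0.1 in wild-type-labelled libraries. Beaded chains made up 36.7% ± 0.5 in null-labelled and 20.9% ± 0.2 in wild-type-labelled libraries. For every class but the transmembrane one, whose share was 0.205% ± 0.052 in null-labelled and 0.231% ± 0.009 in wild-type-labelled libraries, the values of the groups stood far apart. That exception rests on the length used: with the length of 1 principal transcript the transmembrane share was 0.248% in null-labelled and 0.734% in wild-type-labelled libraries, and without division by length 0.144% and 0.332%. No test was made of the shares, which sum to a whole and so cannot move independently.

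**Figure D2:**
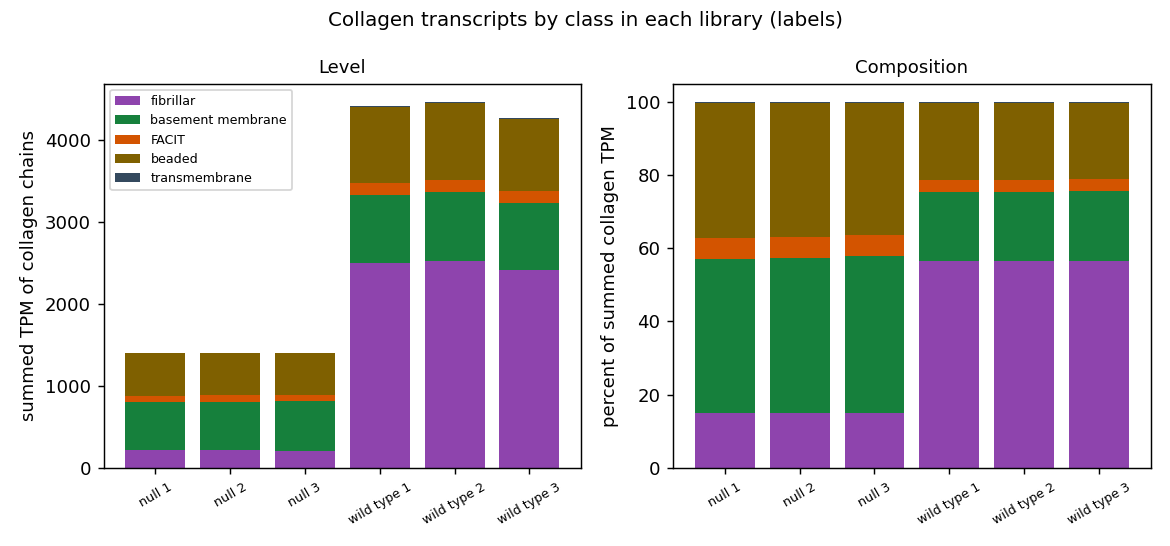
Summed TPM of the collagen chains by class (left panel) and the share of each class in percent of that sum (right panel), one bar per library, with the null-labelled libraries left of the wild-type-labelled ones. Fibrillar chains make up 15.0% in null-labelled and 56.5% in wild-type-labelled libraries on average, and basement membrane chains 42.5% and 19.0%.

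The order of the chains changed with it. In null-labelled libraries the highest level was that of Col6a1 (351.5 ± 5.4 TPM), followed by Col4a1 (257.5 ± 1.3), Col4a2 (212.5 ± 3.1) and Col5a1 (178.8 ± 0.7). Next came Col18a1 (113.5 ± 2.0 TPM) and Col6a3 (107.3 ± 3.5 TPM), which lay closer to each other than any 2 of the chains above them. In wild-type-labelled libraries the order began with Col3a1 (1010 ± 32 TPM), Col1a2 (679 ± 10), Col6a1 (432 ± 8), Col6a3 (370.0 ± 18) and Col1a1 (308 ± 9). Col3a1 ranked 11 and Col1a2 ranked 13 among the chains in null-labelled libraries. With the length of 1 principal transcript in place of all exonic bases, Col6a3 came before Col6a1 in wild-type-labelled libraries, with 7.43% and 6.97% of collagen TPM.

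Stretches of the promoters are shown for 7 chains that stand for the kinds of difference described below, 3 of them far lower, 2 moderately lower and 2 higher in null-labelled libraries. The sequences are the 120 bases before the RefSeq transcript start (GRCm38.p6), on the strand of the gene from 5′ to 3′. Capitals mark the core of the TATA box, TATAAA. They also mark the CCAAT box, spelled as in its name, and the core of the GC box, GGGCGG. All were searched on both strands, so a reverse complement is marked too, and no marked stretches overlap. The first 3 are far lower, the next 2 moderately lower and the last 2 higher in null-labelled libraries.
Col3a1 (chr1:45311418-45311537, plus strand): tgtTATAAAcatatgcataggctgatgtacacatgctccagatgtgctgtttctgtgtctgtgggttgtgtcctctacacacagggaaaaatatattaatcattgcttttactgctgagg
Col8a1 (chr16:57754738-57754857, minus strand): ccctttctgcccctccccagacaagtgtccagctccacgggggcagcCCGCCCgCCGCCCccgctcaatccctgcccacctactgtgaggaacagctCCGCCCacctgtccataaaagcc
Col11a1 (chr3:114030420-114030539, plus strand): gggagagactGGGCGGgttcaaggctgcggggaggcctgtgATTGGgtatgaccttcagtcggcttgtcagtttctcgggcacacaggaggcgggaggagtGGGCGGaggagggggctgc
Col5a1 (chr2:27886305-27886424, plus strand): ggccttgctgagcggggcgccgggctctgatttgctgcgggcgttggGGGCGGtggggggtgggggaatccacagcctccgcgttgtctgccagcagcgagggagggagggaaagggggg
Col6a3 (chr1:90843972-90844091, minus strand): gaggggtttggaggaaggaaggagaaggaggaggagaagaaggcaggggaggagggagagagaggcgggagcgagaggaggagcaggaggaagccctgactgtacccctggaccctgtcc
Col5a3 (chr9:20815068-20815187, minus strand): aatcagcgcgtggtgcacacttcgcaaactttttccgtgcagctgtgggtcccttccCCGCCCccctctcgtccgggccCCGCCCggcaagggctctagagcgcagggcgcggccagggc
Col13a1 (chr10:61979109-61979228, minus strand): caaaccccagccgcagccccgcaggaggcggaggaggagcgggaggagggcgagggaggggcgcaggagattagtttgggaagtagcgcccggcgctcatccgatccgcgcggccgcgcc

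Of the 38 chains, 31 had an entry in the RefSeq promoter table. In the 250 bases before the start, TATAAA stood in 4 of the 31 (Col3a1, Col11a2, Col13a1 and Col17a1), against 12.4% of 32841 promoters. CCAAT stood in 11 of the 31, against 33.9%, and GGGCGG in 19 of the 31, against 32.7%. TATAAA occurs both before Col3a1, which was far lower, and before Col13a1, which was higher in null-labelled libraries. The Col3a1 match began 117 bases before the start, and that of Col13a1 lay outside the 120 bases shown. G and C made up 35.2% of the Col3a1 window, with no CpG, but 62.4% of that of Col11a1 and 60.8% of that of Col8a1, which were also far lower. In the windows of Col5a1 and Col5a3 they made up 76.4% and 62.8%. The median was 60.4% over the 31 chains and 52.4% over all promoters. A match of letters is a description of the sequence and does not show a binding site.

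Fibrillar chains build the banded fibrils that give connective tissue its tensile strength. All 10 were tested, and 8 were lower and 2 higher in null-labelled libraries, against 41.1% lower and 38.1% higher over all tested genes. The median log2 fold change of the 10 chains was -5.87. Col27a1 was below the filter level in some null-labelled libraries and Col11a2 in some wild-type-labelled libraries, so these counts describe the members only. Type I collagen, the most abundant fibrillar collagen of skin and bone, is a trimer of Col1a1 and Col1a2 products. Col1a1 (ENSMUSG00000001506, chr11:94936224-94953042) had 1.79, 1.81 and 1.44 CPM in null-labelled libraries, against 619, 642 and 609 CPM in wild-type-labelled libraries. Col1a2 (chr6:4504814-4541544) had 7.69, 7.65 and 6.82 CPM in null-labelled libraries, against 2566, 2651 and 2598 CPM in wild-type-labelled libraries. The groups were far apart for both chains, with log2 fold changes of -8.53 ± 0.05 and -8.46 ± 0.04 (SE). Col3a1 (chr1:45311538-45349706), the single chain of type III collagen of pliable tissues, had 8.56, 9.35 and 8.69 CPM in null-labelled libraries, against 3084, 3119 and 2972 CPM in wild-type-labelled libraries. Its log2 fold change of -8.43 ± 0.03 (SE) left 0.290% of the level in wild-type-labelled libraries.

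Types V and XI are minor fibrillar collagens that start fibrils and limit their width. Their chains went different ways. Col5a2 (chr1:45374321-45503282) had 1.03, 1.23 and 0.906 CPM in null-labelled libraries, against 445, 454.5 and 435 CPM in wild-type-labelled libraries, a log2 fold change of -8.72 ± 0.06 (SE). Col11a1 (chr3:114030540-114220718) had 0.666, 0.643 and 0.640 CPM in null-labelled libraries, against 249.9, 257 and 253 CPM in wild-type-labelled libraries, a log2 fold change of -8.59 ± 0.07. Both were thus lower by about as much as the type I and type III chains. Col5a1 (chr2:27886425-28039514) had 468, 464 and 466 CPM in null-labelled libraries, against 661, 674 and 669.9 CPM in wild-type-labelled libraries. Its groups also stood apart, but null-labelled libraries kept 69.7% of the level, a log2 fold change of -0.52 ± 0.02 (SE, edgeR adjusted p = 6.28e-115).

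The other 2 type V and XI chains were higher in null-labelled libraries. Col5a3 (chr9:20770050-20815067), the third chain of type V collagen, had 49.4, 48.6 and 47.3 CPM in null-labelled libraries, against 13.8, 15.9 and 13.8 CPM in wild-type-labelled libraries. This was 3.35-fold higher, a log2 fold change of 1.75 ± 0.06 (SE, edgeR adjusted p = 1.26e-189). Col11a2 (chr17:34039437-34066685), a chain of the type XI collagen of cartilage, had 2.51, 2.45 and 2.51 CPM in null-labelled libraries, against 0.559, 0.328 and 0.367 CPM in wild-type-labelled libraries. Its log2 fold change was 2.50 ± 0.28 (SE, edgeR adjusted p = 1.1e-18), from a low level. All libraries of the null label lay above all those of the wild-type label for both genes.

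Types XXIV and XXVII are fibrillar collagens of developing bone and cartilage. Col24a1 had 1.90, 1.46 and 2.13 CPM in null-labelled libraries, against 7.66, 6.63 and 7.02 CPM in wild-type-labelled libraries (log2 fold change -1.96 ± 0.15, SE). Col27a1 had 0.564, 0.409 and 0.320 CPM in null-labelled libraries, against 4.56, 3.54 and 4.76 CPM in wild-type-labelled libraries (log2 fold change -3.31 ± 0.25, SE). Both were low genes with groups that did not overlap.

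**Figure D3:**
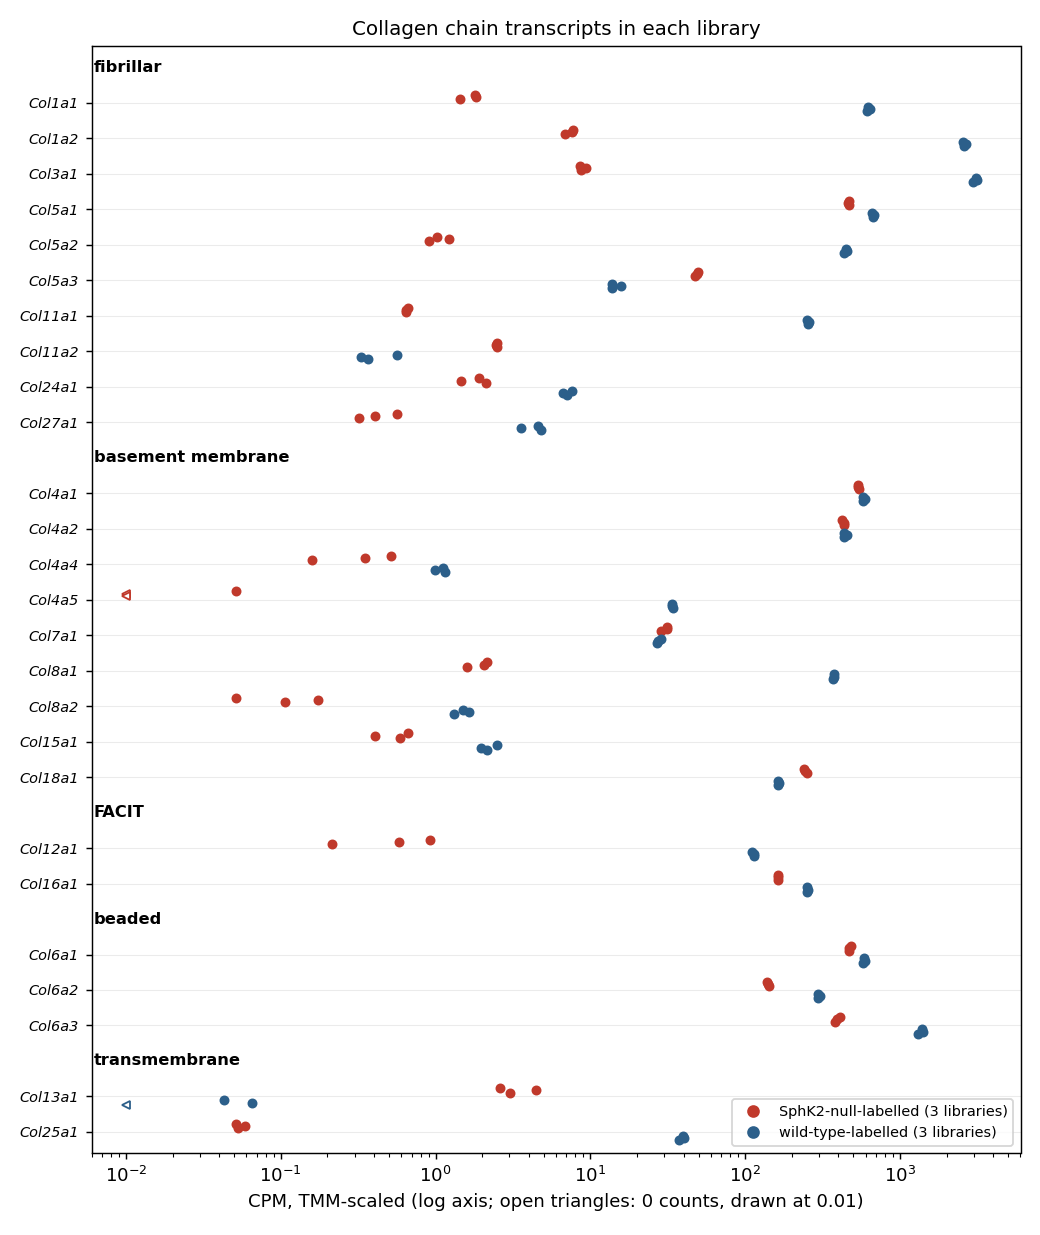
CPM of the tested collagen chains with at least 1 CPM on average in either group, one point per library on a log axis, null-labelled libraries in red and, just below them, wild-type-labelled libraries in blue; open triangles are libraries with 0 counts. Col1a1, Col1a2, Col3a1, Col5a2, Col11a1, Col8a1 and Col12a1 stand above 100 CPM in wild-type-labelled and below 10 CPM in null-labelled libraries, while Col4a1, Col4a2, Col5a1 and Col6a1 stay among the highest chains in all 6 libraries.

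Among the 11 chains of basement membranes and related sheets, 9 were tested, 6 were lower, 2 were higher and 1 did not pass, with a median log2 fold change of -1.65. Of all tested genes 41.1% were lower and 38.1% higher. Col4a4, Col4a5 and Col8a2 were below the filter level in every null-labelled library, and Col15a1 in some, so these counts describe the members only. Type IV collagen of nearly all basement membranes is a trimer of Col4a1 and Col4a2 products. Col4a1 (chr8:11198423-11312826) had 537, 537 and 542 CPM in null-labelled libraries, against 573.5, 598 and 576 CPM in wild-type-labelled libraries. The groups did not overlap, but the difference was small, with a log2 fold change of -0.11 ± 0.02 (SE, edgeR adjusted p = 1.18e-06). Neither the SE nor the p covers error in the scaling between libraries, which matters most for differences this small. Col4a2 (chr8:11312805-11449287) had 425, 432 and 438 CPM in null-labelled libraries, against 433, 451 and 434 CPM in wild-type-labelled libraries. These ranges overlapped, and the log2 fold change of -0.03 ± 0.02 did not pass (SE, edgeR adjusted p = 0.315). The 2 genes lie head to head and their annotated exons share 22 bases at chr8:11312805-11312826 (plus strand), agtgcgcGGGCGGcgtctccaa, with a GC box letter match in capitals. Reads over these shared bases were left out of the counts of both genes by the default of the counting program.

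The alternative type IV chains, which replace the common ones in kidney, lung and eye basement membranes, were low or nearly absent in null-labelled libraries. Col4a5 (chrX:141475385-141689234) had 1 count in the 3 null-labelled libraries together, against 33.6, 33.7 and 34.0 CPM, or 1942 counts, in wild-type-labelled libraries. The count ratio, wild-type-labelled over null-labelled and corrected for depth, was 1868 with a 95% counting interval of 335 to 73830. Col4a6, its neighbour on the X chromosome with a gap of 1308 bases, had 1 count in null-labelled and 29 counts in wild-type-labelled libraries and was not tested. Col4a3 and Col4a4 form another head-to-head pair, on chromosome 1. Col4a3 had 3 counts in null-labelled and 25 counts in wild-type-labelled libraries and was not tested. Col4a4 had 0.512, 0.350 and 0.1599 CPM in null-labelled libraries, against 1.12, 0.984 and 1.152 CPM in wild-type-labelled libraries (log2 fold change -1.65 ± 0.36, SE). All 4 of these chains had fewer counts in null-labelled than in wild-type-labelled libraries.

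Type VIII collagen forms the hexagonal lattice of the Descemet membrane of the cornea and is made by vascular cells. Col8a1 (chr16:57624258-57754737) had 2.15, 2.04 and 1.599 CPM in null-labelled libraries, against 372, 376 and 368 CPM in wild-type-labelled libraries. Its groups were far apart, with a log2 fold change of -7.59 ± 0.06 (SE). Col8a2 had 0.0512, 0.175 and 0.107 CPM in null-labelled libraries, against 1.51, 1.64 and 1.31 CPM in wild-type-labelled libraries, a log2 fold change of -3.69 ± 0.43 (SE, edgeR adjusted p = 3.09e-17).

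The multiplexins Col15a1 and Col18a1 encode proteoglycan collagens of the basement membrane zone, and the end of the Col18a1 product is released as endostatin. Col18a1 (chr10:77052178-77166548) had 241.5, 242.5 and 249.6 CPM in null-labelled libraries, against 163, 166 and 164 CPM in wild-type-labelled libraries. It was 1.49-fold higher, with groups that did not overlap and a log2 fold change of 0.58 ± 0.03 (SE, edgeR adjusted p = 1.75e-96). Col15a1 went the other way, with 0.666, 0.409 and 0.586 CPM in null-labelled libraries, against 2.50, 1.97 and 2.15 CPM in wild-type-labelled libraries (log2 fold change -1.98 ± 0.27, SE). Col7a1, the chain of the anchoring fibrils that fasten epidermis to dermis, had 31.1, 31.1 and 28.7 CPM in null-labelled libraries, against 28.5, 27.5 and 27.1 CPM in wild-type-labelled libraries. Its log2 fold change of 0.13 ± 0.06 passed narrowly (SE, edgeR adjusted p = 0.0323). The call was lost with DESeq2 (adjusted p = 0.14), without a filter on low counts (0.133) and without null-labelled replicate 1 (0.119) or 2 (0.109) or wild-type-labelled replicate 2 (0.0769) or 3 (0.122).

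Type VI collagen is a trimer whose main chains come from Col6a1, Col6a2 and Col6a3. All 3 were lower in null-labelled libraries, by unequal amounts, against 41.1% of all tested genes lower. Col6a1 (chr10:76708792-76726168) had 480, 471 and 466 CPM in null-labelled libraries, against 582, 592 and 577 CPM in wild-type-labelled libraries (log2 fold change -0.30 ± 0.02, SE). Col6a2 (chr10:76595762-76623630) had 138, 139 and 142 CPM in null-labelled libraries, against 297, 306 and 294 CPM in wild-type-labelled libraries (log2 fold change -1.09 ± 0.03, SE). Col6a3 (chr1:90765923-90843971) had 407, 393 and 381 CPM in null-labelled libraries, against 1386, 1413 and 1300 CPM in wild-type-labelled libraries (log2 fold change -1.79 ± 0.02, SE). In each case the groups did not overlap. Of the other beaded-filament chains, Col6a6 had 0 counts in all 6 libraries, and Col28a1 had 0 counts in null-labelled and 6 counts in wild-type-labelled libraries.

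FACIT chains sit on the surface of fibrils made by other collagens. Of 8 such chains, 3 were tested and all 3 were lower, against 41.1% of all tested genes. Col22a1, among the 3, entered the test only through the wild-type-labelled group. Col12a1 was below the filter level in null-labelled replicate 3, so its null-labelled libraries alone would not have passed. The count thus describes the members only. Col12a1 (chr9:79598991-79718831), which coats type I fibrils, had 0.922, 0.584 and 0.213 CPM in null-labelled libraries, against 111, 115 and 115 CPM in wild-type-labelled libraries, a log2 fold change of -7.60 ± 0.09 (SE). Col16a1 (chr4:130047840-130099283), found on fibrils and near basement membranes, had 163, 163 and 163 CPM in null-labelled libraries, against 250.1, 254 and 249 CPM in wild-type-labelled libraries. It kept 65.0% of the level of wild-type-labelled libraries (log2 fold change -0.62 ± 0.03, SE), with groups that did not overlap. Col22a1, a chain of tissue junctions, had 10 counts in null-labelled and 51 counts in wild-type-labelled libraries (log2 fold change -2.25 ± 0.43, SE). The other 5 had too few reads to be tested, with 0 to 18 counts in each group. They were Col14a1, Col19a1 and the 3 chains of the cartilage collagen IX, Col9a1, Col9a2 and Col9a3.

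Transmembrane collagens are anchored in the plasma membrane and can be shed, and no common direction was seen among them. Col25a1 (chr3:130131501-130599877), found in neurons and needed for motor innervation of muscle, had 0.0512, 0.0584 and 0.0533 CPM in null-labelled libraries, 1 count in each. In wild-type-labelled libraries it had 39.7, 40.2 and 37.2 CPM. The count ratio, wild-type-labelled over null-labelled, was 720 with a 95% counting interval of 246 to 3495. Col13a1 (chr10:61838236-61979108), found at the neuromuscular junction and at cell contacts, had 2.61, 4.44 and 3.04 CPM in null-labelled libraries, against 0.043, 0.0656 and 0 CPM in wild-type-labelled libraries. It was higher in null-labelled libraries, with 184 counts against 2 counts, and the ratio of null-labelled over wild-type-labelled libraries was 95.6 (95% counting interval 26.1 to 796). Col17a1, a component of hemidesmosomes, had 35 counts in null-labelled and 21 counts in wild-type-labelled libraries and did not pass (log2 fold change 0.78 ± 0.40, SE, edgeR adjusted p = 0.0619). Without wild-type-labelled replicate 2 it passed (log2 fold change 1.13, edgeR adjusted p = 0.0226). Col23a1 had 11 counts in null-labelled and 14 counts in wild-type-labelled libraries and was not tested.

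Chains of one collagen type are built into common trimers, so their ratio was compared within each library, where the scaling between libraries cancels. Of 10 pairs, 6 had at least 10 counts of both chains in every library. With 3 libraries against 3 the exact two-sided permutation test cannot give a p below 0.1. Col1a1 over Col1a2, per exonic base, was 0.435 ± 0.026 in null-labelled and 0.453 ± 0.008 in wild-type-labelled libraries (SD, n = 3 each). The log2 ratio differed by -0.06 ± 0.05 (SE, exact p = 0.4, adjusted over the 6 pairs 0.4), and null-labelled libraries kept 0.270% and 0.284% of the Col1a1 and Col1a2 levels of wild-type-labelled libraries. Col4a1 over Col4a2 was 1.21 ± 0.01 in null-labelled and 1.29 ± 0.0004 in wild-type-labelled libraries, a log2 difference of -0.09 ± 0.01 (SE). These values did not overlap, and the exact p was 0.1 (adjusted 0.12), the smallest possible.

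The type V and type VI ratios differed by more. Col5a1 over Col5a2 was 495 ± 74 in null-labelled and 1.70 ± 0.04 in wild-type-labelled libraries, a log2 difference of 8.18 ± 0.13 (SE). Col5a1 over Col5a3 was 7.71 ± 0.16 in null-labelled and 37.1 ± 2.7 in wild-type-labelled libraries. In null-labelled libraries Col5a3 RNA thus stood above Col5a2 RNA, the reverse of the order in wild-type-labelled libraries. Col6a1 over Col6a2 was 6.42 ± 0.19 in null-labelled and 3.71 ± 0.03 in wild-type-labelled libraries. Col6a3 over Col6a1 was 0.305 ± 0.005 in null-labelled and 0.857 ± 0.027 in wild-type-labelled libraries. For these 4 pairs, too, the values did not overlap and the exact p was 0.1 (adjusted 0.12). The ratio levels, though not their log2 differences between groups, depend on the length used. With the length of 1 principal transcript, Col6a1 over Col6a2 was 3.25 in null-labelled and 1.88 in wild-type-labelled libraries, and Col1a1 over Col1a2 was 0.207 in null-labelled and 0.216 in wild-type-labelled libraries.

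**Figure D4:**
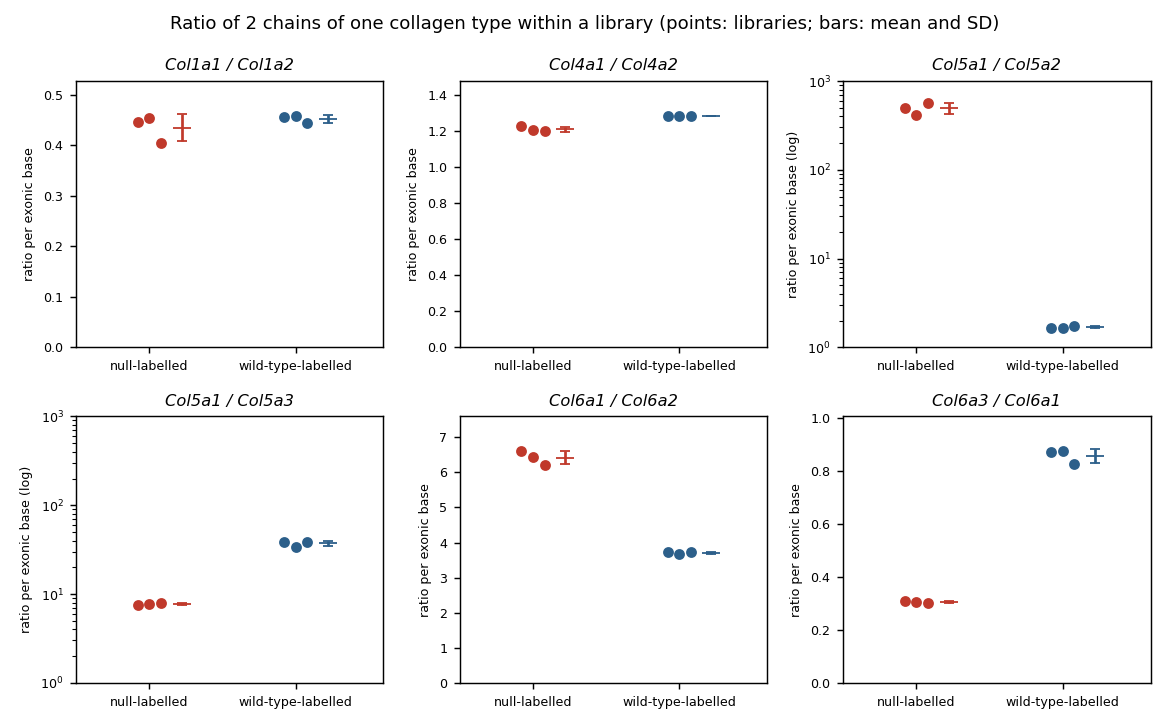
Ratio of 2 chains of one collagen type per exonic base in each library, on a separate axis for each of the 6 pairs, null-labelled libraries left of wild-type-labelled ones. Col1a1 over Col1a2 overlaps between the groups (0.435 in null-labelled and 0.453 in wild-type-labelled libraries on average), and the other 5 pairs do not.

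Several chains lie beside each other on a chromosome. Col3a1 and Col5a2, both far lower, lie on chromosome 1 with 24614 bases between them. Col6a1 and Col6a2, on chromosome 10 with 85161 bases between them, differed in the size of their fold change. Of the 16 other genes tested that lie nearest to the 9 chains lower by more than 32-fold, 10 were lower, 3 were higher and 3 did not pass, so that the share called was near the 79.2% of all tested genes. More than 32-fold lower were 3 of the 16, against 6.15% of all tested genes. All 3 (Gulp1, S1pr1 and Gm43921) were below the filter level in every null-labelled library and entered the test only through the wild-type-labelled group. The count thus describes these genes and is not evidence about chromosome regions. Gulp1, beside Col3a1 at 514699 bases, had 0.0526 CPM in null-labelled and 16.0 CPM in wild-type-labelled libraries. S1pr1, which encodes a receptor for sphingosine 1-phosphate and is the tested gene nearest to Col11a1 on one side, at 1489714 bases, had 1 count in null-labelled and 1055 counts in wild-type-labelled libraries. Gm43921, whose span overlaps that of Col1a2, had 0 counts in null-labelled and 95 counts in wild-type-labelled libraries. Beside Col1a1, Ppp1r9b differed by 0.05 on the log2 scale and did not pass (edgeR adjusted p = 0.245).

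The genes that make, secrete, trim, crosslink, bind and degrade collagen were read from a list of 63, of which 57 were tested, 43 were lower and 11 were higher in null-labelled libraries, against 41.1% lower and 38.1% higher over all tested genes. The median of their log2 fold changes was -1.02, against -0.02 over all tested genes. Several, among them Tmem38b, Lum, Adamts2 and Ctsk, were below the filter level in every null-labelled library. Such genes entered the test only through the wild-type-labelled group, so the counts and the median describe the list and are not evidence about the pathway. Among hydroxylases and their partners 10 of 13 were lower and 2 higher. P4ha3, a prolyl 4-hydroxylase subunit, had 0.825 ± 0.2997 CPM in null-labelled and 29.4 ± 2.0 CPM in wild-type-labelled libraries (SD, n = 3 each). P3h2, a prolyl 3-hydroxylase that modifies type IV collagen, had 0.961 ± 0.327 CPM in null-labelled and 8.88 ± 0.42 CPM in wild-type-labelled libraries. Colgalt1, which adds galactose to hydroxylysine, was higher instead, with 282 ± 2 CPM in null-labelled and 123.5 ± 2.9 CPM in wild-type-labelled libraries (log2 fold change 1.19 ± 0.03, SE). Of 10 chaperone and secretion genes 9 were lower and 1, Mia2, was higher. Fkbp14, a folding enzyme of the endoplasmic reticulum, had 1.38 ± 0.58 CPM in null-labelled and 11.5 ± 0.7 CPM in wild-type-labelled libraries. Tmem38b, a potassium channel of that compartment, had 1 count in null-labelled and 449 counts in wild-type-labelled libraries.

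Outside the cell the pattern was also mixed. Of 8 tested propeptide-cleavage genes 5 were lower and 2 higher, against 41.1% lower and 38.1% higher over all tested genes. Of the procollagen N-proteinase genes 1 was higher and 2 were lower. Adamts3 had 5.58 ± 0.55 CPM in null-labelled and 0.577 ± 0.204 CPM in wild-type-labelled libraries (SD, n = 3 each). Adamts14 had 22.6 ± 0.5 CPM in null-labelled and 53.6 ± 2.0 CPM in wild-type-labelled libraries. Adamts2, added after its values were seen, had 4 counts in null-labelled and 144 counts in wild-type-labelled libraries, a log2 fold change of -4.98 ± 0.41 (SE, edgeR adjusted p = 6.1e-33). Of 6 crosslinking genes 5 were lower and 1 higher. Lox, the main lysyl oxidase of fibrillar collagen, had 0.791 ± 0.196 CPM in null-labelled and 251 ± 13 CPM in wild-type-labelled libraries. Its relative Loxl1 had 0.990 ± 0.297 CPM in null-labelled and 58.8 ± 2.6 CPM in wild-type-labelled libraries. Both were lower in all 3 null-labelled libraries, with log2 fold changes of -8.29 ± 0.07 and -5.87 ± 0.10 (SE).

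Of the 7 fibril-associated genes 6 were lower and 1 higher, against 41.1% lower and 38.1% higher over all tested genes. Fn1, which encodes fibronectin, had 3.37 ± 0.36 CPM in null-labelled and 2036 ± 44 CPM in wild-type-labelled libraries (log2 fold change -9.23 ± 0.04, SE). Lum, which encodes a small proteoglycan of collagen fibrils, had 3 counts in null-labelled and 917 counts in wild-type-labelled libraries. Of 7 tested receptor genes 3 were higher and 3 lower. Ddr1, a receptor tyrosine kinase for collagen, had 215 ± 5 CPM in null-labelled and 59.8 ± 1.2 CPM in wild-type-labelled libraries, and Mrc2, an endocytic collagen receptor, had 0.496 ± 0.232 CPM in null-labelled and 11.4 ± 0.4 CPM in wild-type-labelled libraries. All 5 tested collagenase genes were lower. Ctsk and Mmp13 entered the test only through the wild-type-labelled group, and Mmp2 was below the filter level in 1 null-labelled library. The count thus describes the listed genes only. Mmp2, a gelatinase, had 0.572 ± 0.142 CPM in null-labelled and 157 ± 4 CPM in wild-type-labelled libraries. Ctsk, a lysosomal protease that cleaves collagen, had 0.292 ± 0.121 CPM in null-labelled and 70.4 ± 1.5 CPM in wild-type-labelled libraries.

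**Figure D5:**
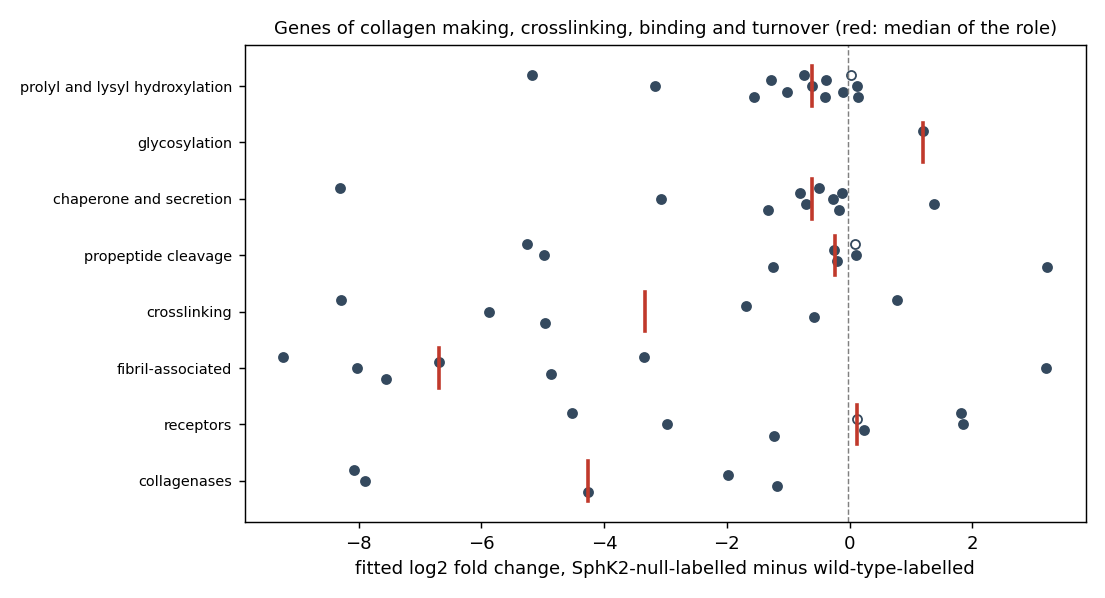
Log2 fold change of the tested genes of collagen production, receptors and breakdown, null-labelled over wild-type-labelled libraries, by role; red bars are medians and open circles did not pass the test. Of 57 genes 43 were lower and 11 higher; the 5 tested collagenases all lie below 0, and the 7 receptors lie on both sides.

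Markers of cell types moved with the labels as well. All 10 fibroblast markers were lower in null-labelled libraries, against 41.1% of all tested genes. The sum of the 10 markers was 3456 to 3494 CPM in null-labelled and 7243 to 7487 CPM in wild-type-labelled libraries. Vim carried most of it, with 3211 CPM in null-labelled and 5622 CPM in wild-type-labelled libraries. Prrx1 had 59.7 CPM in null-labelled and 549.9 CPM in wild-type-labelled libraries, and Thy1 had 0 counts in the null-labelled libraries. Dcn and Lum stand both in this list and among the fibril-associated genes above. Thy1, Lum and Fap were below the filter level in every null-labelled library and entered the test only through the wild-type-labelled group. Dcn was below it in null-labelled replicate 2, so its null-labelled libraries alone would not have passed. The count thus describes the listed genes only. Smooth muscle and pericyte markers were lower in 5 of 6 tested genes and summed to 13.9 to 14.5 CPM in null-labelled and 266 to 284 CPM in wild-type-labelled libraries, and Acta2 (0.941 CPM in null-labelled, 202 CPM in wild-type-labelled libraries) and Tagln (1.08 CPM in null-labelled, 37.1 CPM in wild-type-labelled libraries) led only the wild-type-labelled sum. Rgs5, among the 5 lower, entered the test only through the wild-type-labelled group. The highest smooth muscle and pericyte markers in null-labelled libraries were Cspg4 with 6.56 CPM and Des with 3.596 CPM. Pluripotency markers summed to 0.480 to 0.973 CPM in null-labelled and 112.5 to 113 CPM in wild-type-labelled libraries, with Sox2 at 0.0933 CPM in null-labelled and 112 CPM in wild-type-labelled libraries and Esrrb at 0.122 CPM in null-labelled and 0.539 CPM in wild-type-labelled libraries. Sox2, the only pluripotency marker tested, entered the test only through the wild-type-labelled group. The highest pluripotency marker in null-labelled libraries was Pou5f1, not tested, with 22 counts in null-labelled and 3 counts in wild-type-labelled libraries. Extraembryonic endoderm markers were higher in 2 and lower in 3 of 5 tested genes, against 38.1% higher and 41.1% lower over all tested genes. The sum of this list was 62.7 to 64.1 CPM in null-labelled and 209.6 to 219 CPM in wild-type-labelled libraries, mostly Dab2 and Sox7.

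Epithelial markers summed to 384 to 411 CPM in null-labelled and 108 to 110.5 CPM in wild-type-labelled libraries, nearly all of it Krt8. Krt18 had 0.289 CPM in null-labelled and 1.19 CPM in wild-type-labelled libraries. Of the 3 tested epithelial markers 1 was higher and 1 lower. Over all tested genes 38.1% were higher and 41.1% lower, which is the background for each list of markers. Trophoblast markers summed to 21.3 to 22.1 CPM in null-labelled and 1.18 to 1.38 CPM in wild-type-labelled libraries, and 2 of 3 tested genes were higher and 1 lower. All 3 (Hand1, Krt7 and Eomes) entered the test only through the group in which they were high. Hand1 had 20.1 CPM in null-labelled and 0.136 CPM in wild-type-labelled libraries, and Krt7 had 1.27 CPM in null-labelled and 0.0537 CPM in wild-type-labelled libraries. Eomes, most of the wild-type-labelled sum, went the other way, with 6 counts in null-labelled and 55 counts in wild-type-labelled libraries, and Cdx2 and Prl3d1 had 0 counts in both groups. Neural and Schwann markers summed to 438 to 463 CPM in null-labelled and 312 to 319 CPM in wild-type-labelled libraries, nearly all Nes and Tubb3. Chondrocyte and osteoblast markers, 2 of 4 tested higher (Sox9 among them) and 2 lower (Runx2 among them), summed to 158.9 to 162 CPM in null-labelled and 164 to 174 CPM in wild-type-labelled libraries. Endothelial markers summed to 3.79 to 4.96 CPM in null-labelled and 1.89 to 2.62 CPM in wild-type-labelled libraries. Of 3 tested, Pecam1 and Vwf were higher, and Cdh5 was lower with 11 counts in null-labelled and 45 counts in wild-type-labelled libraries. Leukocyte markers, with Csf1r higher and Cd68 lower, summed to 3.198 to 3.59 CPM in null-labelled and 3.66 to 3.74 CPM in wild-type-labelled libraries. Several other markers, among them Krt18, Vwf, Cdh5 and Csf1r, were also below the filter level in every library of their lower group. The counts thus describe the listed genes only. The part of any cells of these types in the collagen differences was not tested.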

How the data were processed

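RNA in 3 SphK2 null-labelled and 3 wild-type-labelled fibroblast libraries was sequenced as single reads of 51 bases, per the labels' protocols, although the file headers record the counting option for paired reads. The values used are raw counts per gene as deposited: the authors counted reads with featureCounts 1.6.2 on exons of Ensembl release 83 (GRCm38, mm10 names), per the file headers, without options for strand, multimapping or overlapping reads. By default, reads over exons of several genes or from several places were then left out. The submitters' processing notes name featureCounts 1.2.6 instead and list hg38 beside GRCm38 and mm10, beside Subread 1.6.2, FastQC 0.11.2 and Trimmomatic 0.33.

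Genes were filtered with filterByExpr (minimum count 10), scaled by TMM and tested with edgeR 4.0.16 (R 4.3.3, quasi-likelihood, robust), adjusted by Benjamini and Hochberg over 15199 genes. The standard error is the log2 fold change over the root of F. Standard errors and p-values do not cover error in the TMM scaling, which matters for small differences such as those of Col4a1 and Col7a1. Counting intervals cover counting error only, since reads are not independent molecules. Chain ratios had 0.5 counts added and were tested by exact permutation. Adjusted p-values of the largest differences were too small to be stored and are not printed. The test was checked on simulated counts in which a small part of the genes changed, in equal numbers up and down and by modest folds. In these data 79.2% of tested genes passed, so that check does not cover their setting.

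The 38 members, the classes and the gene lists were chosen with earlier results of these data known. Values by library are given for tested members with a mean of at least 1 CPM in either group. Named from each role are the 2 called genes with the largest log2 fold change in size where the mean log2 CPM over libraries reached 1, and from each marker list the 2 with the highest CPM. Named outside these rules, with their values known, were Adamts2, Mia2 and Mmp13 of the roles. Of the markers these were Thy1, Dcn, Lum, Fap, Rgs5, Cspg4, Des, Pou5f1, Eomes, Cdx2, Prl3d1 and Cdh5.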

Additional observations from a re-analysis of the deposited data

How the results depend on the processing

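Median-of-ratios factors, DESeq2 1.42.0, limma-voom (limma 3.58.1), no filter, a filter of over 1 CPM in 3 libraries, an adjusted p under 0.01, a block for the replicate number and leaving out each library were run. No direction of a called chain reversed. Col7a1 lost its call and Col17a1 gained one as given above, and Col7a1 also missed an adjusted p of 0.01. Without a filter 24 chains were lower, since the otherwise untested Col4a3, Col4a6 and Col28a1 passed, and with over 1 CPM in 3 libraries 19 were lower, since Col4a4 and Col22a1 were then not tested. Same-numbered libraries correlated at 0.020, -0.003 and 0.029 in their deviations from the group means, and only some libraries correlated best with their own number. No clear pairing by number was seen, but deviations from means of 3 libraries cannot exclude it. With the replicate block 12003 genes passed, against 12040 without it. Counting type IV chains alone as basement membrane left 3 called chains and shares of 33.6% in null-labelled and 11.6% in wild-type-labelled libraries. Without division by length, the shares in null-labelled and wild-type-labelled libraries were 18.2% and 64.2% (fibrillar), 5.55% and 3.06% (FACIT), 34.0% and 18.8% (beaded) and 0.144% and 0.332% (transmembrane), and basement membrane had 13.6% in wild-type-labelled libraries. With the length of 1 transcript, chosen after seeing the data, they were 13.6% and 64.9% (fibrillar), 40.8% and 13.4% (basement membrane), 6.34% and 2.86% (FACIT) and 39.0% and 18.1% (beaded), and the transmembrane share was 0.248% in null-labelled and 0.734% in wild-type-labelled libraries. Chains at 0 to 3 counts in a group are limited by depth to a ratio with its counting interval.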
